A study of Mus musculus with 14 samples.

Results

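The genes described here are 10 genes of antigen presentation on major histocompatibility complex (MHC) molecules, chosen by symbol from 55450 gene identifiers. H2-K1, H2-D1, B2m, Tap1 and Nlrc5 stand for class I, and H2-Aa, H2-Ab1, H2-Eb1, Cd74 and Ciita for class II. All 10 were matched and all 10 passed the filter on low counts that left 16878 genes for testing. They were measured by RNA-seq in 14 libraries of mouse long-term hematopoietic stem cells (LT-HSCs), the rare bone marrow cells that sustain blood formation for life. All donor cells came from female C57BL/6 mice older than 24 months. Each library was made from 5000 cells sorted as lineage-negative, Sca-1+, c-Kit+, CD48- and CD150+. Before transplantation, cells with low surface P-selectin (Selp low, 4 libraries) and with high surface P-selectin (Selp high, 4 libraries) were sorted from 4 old mice. After transplantation, donor-derived cells were sorted from recipients that had received 1000 Selp low cells (Selp low-derived, 3 libraries) or 1000 Selp high cells (Selp high-derived, 3 libraries). The recipients were lethally irradiated, were 10 to 16 weeks old at transplantation, and were sampled 16 weeks later. The sort after transplantation took CD45.2+ cells without a P-selectin gate, so those groups are named for the cells given, not for the cells recovered. Because each library is a bulk sample, fewer cells expressing a gene and less RNA per cell cannot be told apart.

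MHC class I molecules are carried by nearly all nucleated cells and show peptides from the cell's own cytosol to CD8 T cells. Their heavy chains, such as those encoded by H2-K1 and H2-D1, pair with beta-2 microglobulin (B2m), are filled with peptides pumped into the endoplasmic reticulum by the Tap transporter, and are switched on by the transactivator Nlrc5 and by interferons. MHC class II molecules, built in C57BL/6 mice from H2-Aa with H2-Ab1, are held by the invariant chain Cd74 during transport, depend on the transactivator Ciita, and are best known from B cells, dendritic cells and macrophages. Mice of this strain make no E alpha chain, so the product of H2-Eb1 has no usual partner. The pseudogene of that chain, H2-Ea-ps, had 0 reads in each of the 14 libraries.

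The sequences just upstream of these genes are shown because both classes share control elements, and Nlrc5 and Ciita act through them. RefSeq promoters on GRCm38.p6 were found for 6 of the 10 genes, and the 250 bases before each annotated start were searched on both strands for 3 elements, and for CCAAT, which lies within the first of them read on its other strand. In the stretches below, written 5′ to 3′ in the direction of the gene, capitals mark the Y box CTGATTGG, its reverse complement, or the interferon-stimulated response element (ISRE).

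H2-Aa, chr17:34287854-34287923, minus strand: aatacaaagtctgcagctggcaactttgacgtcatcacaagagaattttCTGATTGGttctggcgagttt
H2-Eb1, chr17:34305767-34305836, plus strand: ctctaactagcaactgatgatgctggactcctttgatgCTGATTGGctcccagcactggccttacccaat
H2-D1, chr17:35263029-35263058, plus strand: agattccaggagCCAATCAGcgtcgccgcg
B2m, chr2:122147537-122147566, plus strand: tataagaacatGAAACTGAAAatgggaaag

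The Y box, bound by the factor NF-Y, was 51 to 44 bases before the start of H2-Aa and 62 to 55 bases before that of H2-Eb1. It was read on the other strand 53 to 46 bases before H2-D1 and, farther out, 222 to 215 bases before Tap1. No full copy was matched before either annotated start of H2-K1, where CCAAT was present. Before the start farther downstream, a CCAAT lay 6 to 2 bases upstream. A full copy there would cross the start, and bases past the start were not searched. Among all 32851 promoters of the same length, 3.83% held a Y box and 33.8% a CCAAT. The ISRE was searched only in a strict form, shown in capitals for B2m, in which the middle bases may vary. That form was matched only before B2m, 139 to 130 bases from the start, and was present in 2.98% of all promoters. Other forms of an interferon element were not searched, so their presence before H2-K1 and H2-D1 was not tested. The X1 box, searched as CNTAGCAAC, was matched in none of the 6 genes and in 1.66% of all promoters. The H2-Eb1 stretch above holds actagcaac, which differs from that string only in its first letter. Near matches were not searched, so a missing match does not mean that a gene lacks the element.

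Reads assigned to genes numbered 22374794 to 38216775 per library, which put 96661 to 200552 reads on H2-K1 in each one. All 9 LT-HSC markers had reads in all 14 libraries. Levels are given as CPM, which are counts relative to library size after scaling between libraries. Both pre-transplant libraries numbered 4 and Selp low-derived replicate 2 stood apart by neutrophil markers, with 9 genes summing to 14184, 19386 and 12078 CPM, against 275 to 5792 CPM in the other 11. Both libraries numbered 4 also held the highest sums of 13 B cell markers, at 6073 and 2689 CPM, against 100 to 1405 CPM elsewhere. Same-numbered libraries of the Selp low and Selp high groups deviated together before transplantation, so each number is treated as 1 mouse. The 8 pre-transplant libraries therefore come from 4 mice. The sources used here do not say which recipients gave which post-transplant library, and all p-values measure only the spread between libraries.

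Class I transcripts were among the most abundant in these cells, and class II transcripts were present at much lower levels in each library. Levels of different genes were compared as CPM per kilobase of exon. B2m, the light chain shared by all class I molecules, had the highest mean of 21951 protein-coding genes, at 3994 CPM per kilobase. H2-D1 was 3rd at 1985 and H2-K1 8th at 1529 CPM per kilobase. Among class II genes, Cd74, the invariant chain, was 58th at 378 CPM per kilobase, and H2-Ab1, the A beta chain, was 393rd at 111. H2-Eb1, Tap1 and H2-Aa followed closely together, at 60.2, 57.8 and 57 CPM per kilobase, and their ranges over the libraries overlapped widely. The 2 transactivators were far lower, Nlrc5 at 6.56 and Ciita at 1.09 CPM per kilobase. By CPM, and so relative to the scaled library size, the 3 class I chains made up 1.07 to 1.59%. The 4 class II chains (Cd74 included) made up 0.0426 to 0.202%.

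**Figure D1:**
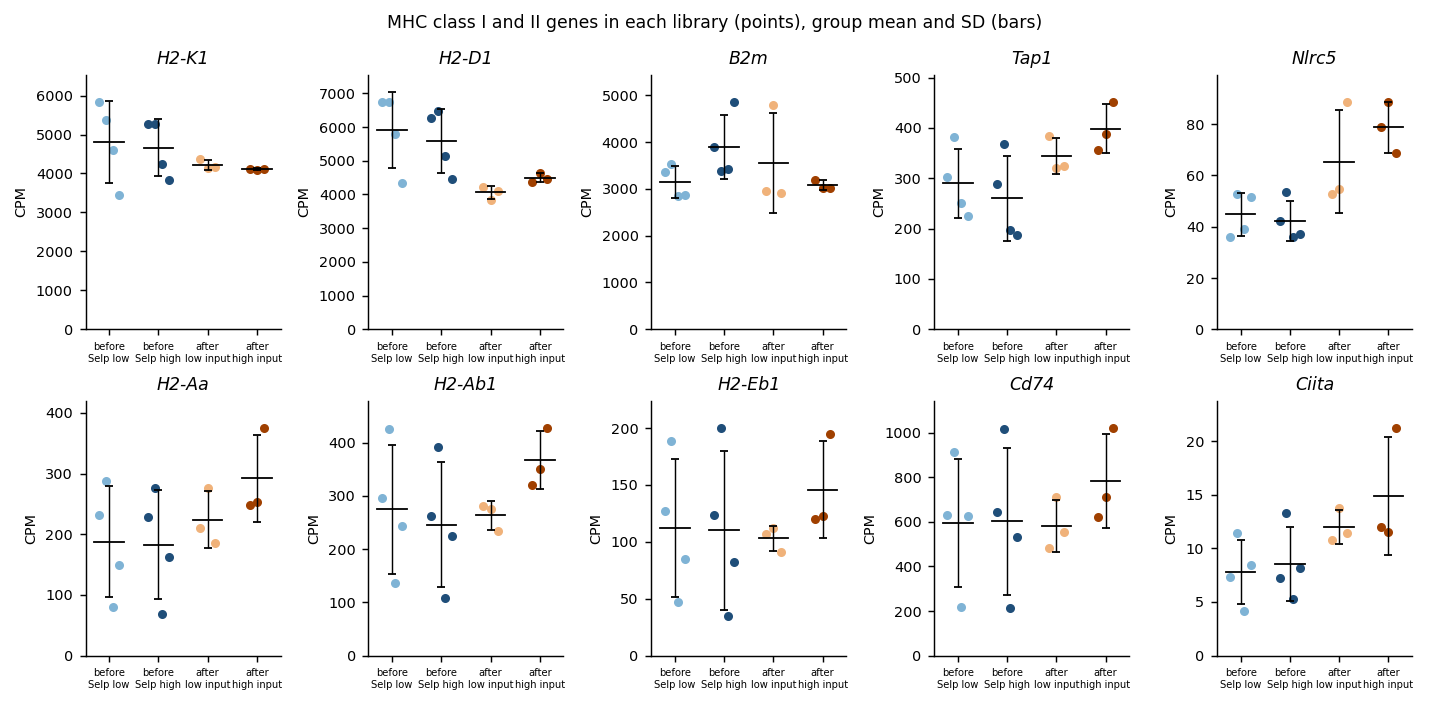
Levels of the 10 genes in CPM (vertical axes, linear from 0) in the 14 libraries, by group. Points are libraries, lines are group means and bars the SD (n = 4 before, n = 3 after transplantation); Nlrc5 sits higher and H2-D1 lower after transplantation, and the class II chains spread widely before it.

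The comparison of donor-derived cells with the old cells before transplantation asked whether presentation genes differ once old LT-HSCs have rebuilt blood in a young host. In this comparison 3 of the 10 genes passed the test, against 27.4% of all genes tested. Nlrc5 and Ciita rose, in a direction in which 12.9% of all genes were called, and H2-D1 fell, in a direction in which 14.6% were. The median log2 change over the 10 genes was 0.21, and it was -0.01 over all genes tested. No gene of the 10 had libraries of the 2 stages that did not overlap, while 9.75% of all genes did (4.28% higher and 5.47% lower). The share of the 10 that was called was thus close to the share of all genes. Markers of the sorted cells moved with the stage as well: the 9 LT-HSC markers summed to 4281 to 5218 CPM before and 3013 to 4199 CPM after transplantation, without overlap. Slamf1, which encodes the CD150 used in the sort, fell by 1.05 on the log2 scale (edgeR adjusted p = 6.87e-06), and Hoxb5, a transcription factor used as an LT-HSC marker, fell by 0.95 (adjusted p = 0.00144), both without overlap. The part of these differences in the changes of the 10 genes was not tested.

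H2-D1, on chromosome 17 from 35262730 to 35267499, encodes the D heavy chain of class I. It was measured at 6731, 6749, 5800 and 4353 CPM in Selp low replicates 1 to 4 and at 6277, 6490, 5150 and 4469 CPM in Selp high replicates 1 to 4. After transplantation it was at 4224, 3847 and 4111 CPM in Selp low-derived and at 4381, 4640 and 4455 CPM in Selp high-derived replicates 1 to 3. The 6 libraries of mice 1 to 3 were above all 6 post-transplant libraries, and both libraries of mouse 4 lay within the post-transplant range. H2-D1 fell by 0.43 on the log2 scale (SE 0.11, 95% interval -0.66 to -0.19, edgeR adjusted p = 0.00968), and it was called in each of the 22 alternative analyses. By input, the change was -0.54 ± 0.16 from Selp low cells (adjusted p = 0.037) and -0.32 ± 0.15 from Selp high cells (adjusted p = 0.191). The difference between these changes was 0.22 ± 0.22 (adjusted p = 0.886). The Selp low call was the only 1 among the 10 genes in that comparison, in which 11.5% of all genes were called (5.01% higher, 6.46% lower), and it was lost when any of 6 of the 7 libraries compared was left out (adjusted p up to 0.1); without Selp low replicate 4 it was kept.

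H2-K1, the K heavy chain (chromosome 17, 33996017 to 34000347), was likewise higher in mice 1 and 2 than in mice 3 and 4 in both fractions, but its change was not called. Selp low cells held 5839, 5367, 4605 and 3440 CPM in replicates 1 to 4, and Selp high cells 5275, 5274, 4253 and 3829 CPM. After transplantation it held within a narrow band, at 4377, 4142 and 4163 CPM in Selp low-derived and 4119, 4096 and 4123 CPM in Selp high-derived cells. The pre-transplant libraries lay on both sides of that band, and the change of -0.18 ± 0.11 was not called (adjusted p = 0.245). It was called at -0.28 without the 3 libraries rich in neutrophil markers (adjusted p = 0.0191) and at -0.25 without Selp low replicate 4 alone (adjusted p = 0.0498). H2-D1 exceeded H2-K1 per kilobase by 1.31 to 1.44 times before and by 1.06 to 1.29 times after transplantation, without overlap of the libraries. That ratio is given as a description only, since both chains belong to a family of near copies: of all 50-base words in their annotated transcripts, 9.63% of those of H2-K1 and 12.8% of those of H2-D1 also occur in transcripts of other genes, such as H2-Q10, H2-Q1 and H2-Q7. Reads that fit several genes were not counted, so the levels of both are uncertain to that extent.

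B2m (chromosome 2, 122147686 to 122153083) shares none of its 50-base words with another gene. Before transplantation it was at 3351, 3541, 2853 and 2860 CPM in the Selp low libraries and at 3905, 3388, 3434 and 4861 CPM in the Selp high ones. After it, the Selp low-derived libraries held 2945, 4797 and 2923 CPM and the Selp high-derived ones 3201, 3018 and 3012 CPM. The highest values were in Selp high replicate 4 and Selp low-derived replicate 2, both rich in neutrophil markers, while Selp low replicate 4, also rich in them, was among the lowest for B2m. The part of other cells in these values was not tested. The change of B2m after transplantation was -0.08 ± 0.12 (adjusted p = 0.656).

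Tap1 (chromosome 17, 34187553 to 34197225), a subunit of the peptide transporter, had higher values after transplantation but missed the threshold. Its levels in replicates 1 to 4 were 303, 382, 251 and 226 CPM in Selp low and 288, 368, 198 and 188 CPM in Selp high cells. In the later groups it reached 385, 320 and 325 CPM in Selp low-derived and 356, 388 and 452 CPM in Selp high-derived cells. Only the libraries of mouse 2 reached the post-transplant range. The log2 change was 0.43 ± 0.16 by edgeR (adjusted p = 0.0565), and it was called by DESeq2 (adjusted p = 0.0282), by limma voom (adjusted p = 0.0348) and by edgeR without either library of mouse 2 (adjusted p = 0.0264 and 0.0121). Tap1 lies head to head with Psmb9, an immunoproteasome subunit on the other strand at a mean of 210 CPM, with which it shares 50-base words. Without regard to strand, reads that fit both genes are ambiguous, and ambiguous reads were dropped.

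Nlrc5, the transactivator of class I genes (chromosome 8, 94434356 to 94527272), rose. Selp low cells had 35.9, 52.7, 39.1 and 51.5 CPM and Selp high cells 42.3, 53.5, 35.9 and 37.3 CPM. Selp low-derived cells had 52.9, 54.6 and 88.7 CPM and Selp high-derived cells 79, 88.5 and 68.6 CPM. Of the 6 post-transplant libraries, 5 were above all 8 pre-transplant libraries, and Selp low-derived replicate 1 lay just under the highest of them. The rise was 0.72 ± 0.14 on the log2 scale (95% interval 0.41 to 1.03, adjusted p = 0.00212), or 1.65-fold, and it was called in all 22 alternatives, with adjusted p from 2.94e-05 to 0.0115. By input, Nlrc5 rose by 0.90 ± 0.20 from Selp high cells (adjusted p = 0.00889), the only call among the 10 genes in that comparison, in which 15.2% of all genes were called (7.63% higher, 7.62% lower). From Selp low cells its change was 0.55 ± 0.20 (adjusted p = 0.101), and the difference between the inputs was 0.35 ± 0.29 (adjusted p = 0.884).

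Ciita, the transactivator of class II genes (chromosome 16, 10480059 to 10528418), was close to the threshold. Its levels were 7.29, 11.4, 4.17 and 8.41 CPM in Selp low and 7.27, 13.3, 5.3 and 8.12 CPM in Selp high cells. They were 10.8, 13.8 and 11.4 CPM in Selp low-derived and 12, 11.5 and 21.2 CPM in Selp high-derived cells. As for Tap1, only mouse 2 reached the post-transplant range, and 1 library, Selp high-derived replicate 3, was far above the rest. Ciita rose by 0.71 ± 0.25 (95% interval 0.18 to 1.24, adjusted p = 0.0452). The call held in 9 of the 22 alternatives, and it was lost without Selp high-derived replicate 3 (0.54, adjusted p = 0.14) and without the 3 libraries rich in neutrophil markers (0.66, adjusted p = 0.116). When the 2 libraries of each old mouse were summed, an alternative chosen after seeing the data, H2-D1 and Nlrc5 were still called and Ciita was not (adjusted p = 0.0865). Ciita overlaps Dexi, which was at a mean of 46 CPM on the other strand.

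The class II chains did not differ between the stages beyond the spread of the libraries. H2-Aa (chromosome 17, 34282744 to 34287823), the A alpha chain, averaged 188 ± 91 CPM (SD, n = 4) among Selp low and 183 ± 89.9 CPM (SD, n = 4) among Selp high libraries. It averaged 224 ± 47 CPM (SD, n = 3) among Selp low-derived and 292 ± 71.7 CPM (SD, n = 3) among Selp high-derived libraries. Its log2 change was 0.46, with a 95% interval of -0.17 to 1.10 (adjusted p = 0.27). The change was 0.25 for H2-Ab1 (-0.30 to 0.81), 0.15 for H2-Eb1 (-0.58 to 0.87) and 0.17 for Cd74 (-0.51 to 0.85), with adjusted p of 0.495, 0.786 and 0.727. These intervals are wide, and they allow both lower and higher levels after transplantation.

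**Figure D2:**
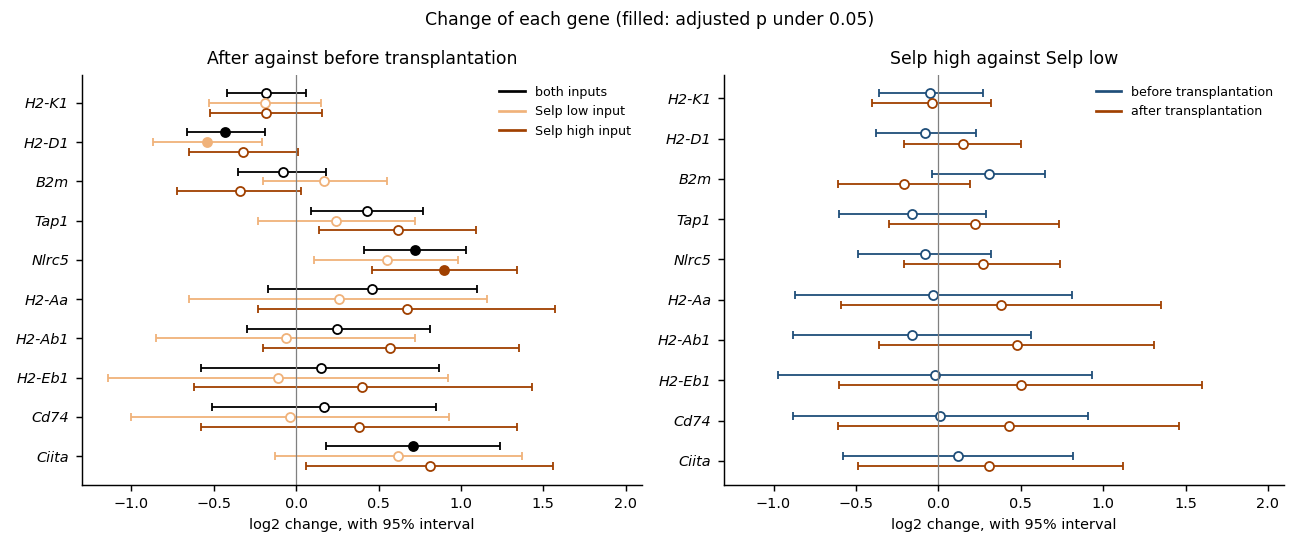
Log2 change of each of the 10 genes (horizontal axes) with the 95% interval of the edgeR fit, after against before transplantation (left, both inputs and each input) and Selp high against Selp low (right, before and after transplantation). Filled points passed an adjusted p under 0.05: H2-D1 (-0.43), Nlrc5 (0.72) and Ciita (0.71) for both inputs, H2-D1 for Selp low input and Nlrc5 for Selp high input.

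The wide spread of the class II chains before transplantation followed the mouse. In mice 1 to 4, H2-Aa was at 232, 288, 80.6 and 150 CPM among Selp low cells and at 228, 276, 68.2 and 162 CPM among Selp high cells. H2-Ab1 (chromosome 17, 34257689 to 34269419) was at 296, 426, 136 and 243 CPM and then at 262, 391, 108 and 224 CPM. Cd74 (chromosome 18, 60803848 to 60812652) was at 633, 913, 216 and 626 CPM and then at 644, 1017, 215 and 533 CPM. Mouse 2 was highest, mouse 1 next, then mouse 4, and mouse 3 lowest, in both fractions and for all 3 of these genes. H2-Eb1 (chromosome 17, 34305867 to 34316674), at 127, 189, 46.7 and 84.7 CPM in the first fraction and 124, 200, 35.2 and 82.2 CPM in the second, had the same order.

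Between the highest and the lowest mouse, H2-Eb1 differed 4.75-fold, Cd74 4.48-fold, H2-Aa 3.79-fold and H2-Ab1 3.35-fold, each as the mean of both fractions. The median fold between mice was 1.34 over the 10922 genes with a mean of at least 5 CPM, and 1.83 to 2.65% of those genes had a larger fold than these 4 chains. Ciita differed 2.61-fold, again with mouse 2 highest and mouse 3 lowest. The class I genes spread less: 1.81-fold for Tap1, 1.53-fold for H2-K1, 1.5-fold for H2-D1, 1.41-fold for Nlrc5 and 1.23-fold for B2m. For H2-K1 and H2-D1 the lowest mouse was mouse 4, not mouse 3. Both libraries of mouse 4 were also those with the highest sums of neutrophil and B cell markers. The part of other cells in its class I levels was not tested. Within a mouse, the ratio of Selp high to Selp low cells ran only from 0.755 to 1.11 for the 4 class II chains.

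A test of the difference between the 4 old mice, with the fraction as a term and chosen after seeing the data, called 8 of the 10 genes, against 8.52% of all genes tested. The adjusted p was 0.00125 for H2-Aa and Cd74, 0.00138 for H2-Ab1, 0.00142 for H2-Eb1 and 0.0316 for Ciita. It was 0.0115 for H2-D1, 0.013 for Tap1 and 0.0169 for H2-K1, while B2m (0.557) and Nlrc5 (0.216) were not called. Each mouse gave 2 libraries of different cells, so this test sets mice against the spread between fractions of 1 mouse. Preparation of cells from 1 mouse together cannot be told apart from the mouse itself.

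**Figure D3:**
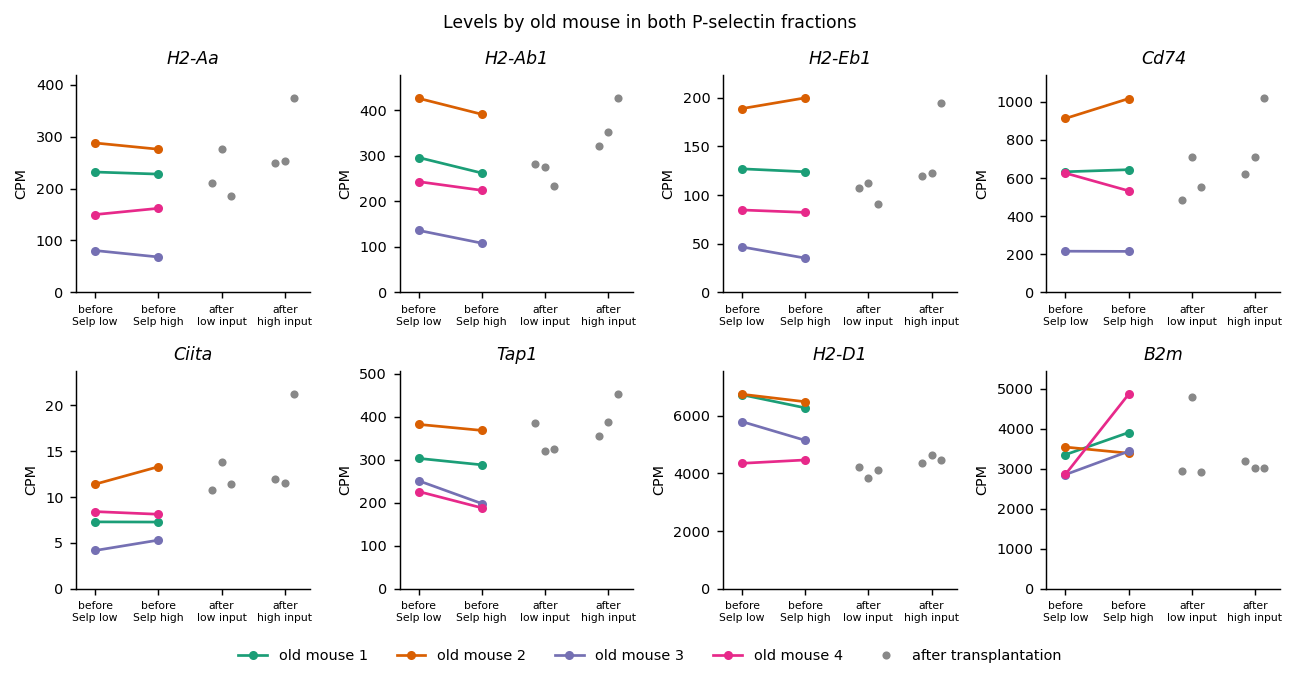
Levels in CPM (vertical axes, linear from 0) of 8 of the genes, with a line joining the Selp low and Selp high libraries of each old mouse and grey points for the libraries after transplantation. The 4 class II chains keep the order mouse 2, mouse 1, mouse 4, mouse 3 in both fractions, with nearly flat lines.

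After transplantation the class II chains did not fall as low as in mouse 3. H2-Aa was at 210, 276 and 185 CPM from Selp low and 249, 253 and 375 CPM from Selp high input, and the H2-Ab1 values were 281, 276 and 233 CPM, then 321, 351 and 427 CPM. H2-Eb1 was at 107, 112 and 91.3 CPM and at 120, 123 and 195 CPM, and Cd74 at 483, 710 and 553 CPM and at 620, 710 and 1021 CPM. Selp high-derived replicate 3 was the highest of these 6 libraries for each of the 4 chains, as it was for Ciita and Tap1. The sources used here do not name the old donor of each recipient, so no old mouse could be followed through transplantation.

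The comparison of Selp high with Selp low cells asked whether P-selectin level marks a difference in presentation. Before transplantation edgeR called 0 of the 10 genes and 0% of all genes, with 0 of the 10 and 863 of all genes at an unadjusted p under 0.05. DESeq2 and limma voom called 0 of the 10 as well, and DESeq2 called 11 of all genes. Of the 10, 3 had higher and 7 lower values in Selp high cells, with a median log2 difference of -0.04 against -0.02 over all genes. The interval was narrower with the mouse as a block in the fit: the difference of H2-Aa was -0.03 (-0.87 to 0.81) without and -0.04 (-0.22 to 0.13) with it. With the block, Cd74 differed by -0.00 (-0.19 to 0.18), H2-K1 by -0.02 (-0.15 to 0.11) and H2-D1 by -0.06 (-0.18 to 0.05). The intervals that left out 0 were those of H2-Ab1, lower in 4 of 4 mice (-0.17, -0.33 to -0.02, adjusted p = 0.326), and B2m, higher in 3 of 4 mice (0.31, 0.05 to 0.57, adjusted p = 0.294). Neither passed the threshold.

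After transplantation, 0 of the 10 genes and 0% of all genes were called by edgeR between Selp high-derived and Selp low-derived cells, with 0 of the 10 and 765 of all genes at an unadjusted p under 0.05. DESeq2 and limma voom also called 0 of the 10, and DESeq2 25 of all genes. The values were higher in Selp high-derived cells for 8 of the 10 genes, including all 5 class II genes, with a median log2 difference of 0.29 against 0.01 over all genes. H2-Ab1 averaged 367 ± 54.9 CPM among Selp high-derived and 263 ± 26.6 CPM among Selp low-derived libraries (SD, n = 3 each), and its 3 Selp high-derived libraries were above the 3 Selp low-derived ones. Its difference was 0.48 ± 0.39 (95% interval -0.36 to 1.31, adjusted p = 0.979). The 2 Selp differences, before and after, were compared in 1 test, in which 0 of the 10 genes and 0% of all genes were called by edgeR (874 of all genes and 0 of the 10 at an unadjusted p under 0.05). With a replicate block within each stage, which also pairs the post-transplant libraries by number, edgeR again called 0 of the 10, and 3 of them were at an unadjusted p under 0.05. These were H2-Ab1 (0.66, 95% interval 0.28 to 1.03, edgeR adjusted p = 0.439), Tap1 (0.40, 0.04 to 0.75, adjusted p = 0.51) and H2-Eb1 (0.56, 0.03 to 1.09, adjusted p = 0.52). DESeq2 called 11 of all genes there and 0 of the 10, and limma voom 0 of the 10. The estimate was above 0 for 9 of the 10 genes and ran from -0.51 for B2m to 0.64 for H2-Ab1. Selp itself, the gene the cells were sorted by, differed by 0.31 before and 0.16 after transplantation (adjusted p = 0.957 and 0.979).

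Among the pathway genes described below, 0 were called in either Selp comparison. Before transplantation the smallest p of each list belonged to Cd1d1 (-0.32 ± 0.14), Erap1 (0.27 ± 0.11), Psmb5 (-0.28 ± 0.14), Ctsl (0.22 ± 0.11), Rfxap (-0.17 ± 0.10) and Cd86 (-0.93 ± 0.43), each with an adjusted p of 0.957. After transplantation it belonged to H2-Q4 (-0.84 ± 0.30), Erap1 (0.19 ± 0.12), Psmb7 (-0.22 ± 0.17), Ifi30 (-0.70 ± 0.43) and Icosl (-0.50 ± 0.36) in 5 of the lists, each with an adjusted p of 0.979. Erap1 was the gene with the smallest p of its list in both comparisons, with higher values in the Selp high groups, and this was not called in either.

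Around these genes, the rest of the presentation pathway was read in 6 lists, of which 65 genes were tested. After transplantation, 3 of 12 genes of class I peptide supply and loading rose and 0 fell (median log2 change 0.01), where 12.9% of all genes were called higher and 14.6% lower, 27.4% in all. The 3 that rose were Psmb9, an immunoproteasome subunit (0.40 ± 0.13, adjusted p = 0.0332), Psme2, a subunit of the proteasome activator (0.38 ± 0.10, adjusted p = 0.00946), and Erap1, the peptidase that trims peptides in the endoplasmic reticulum (0.26 ± 0.08, adjusted p = 0.0264). Only 1 of the 3 was called without Selp high-derived replicate 1, and likewise with each old mouse summed. Calr, the chaperone with the highest level per kilobase of this list, differed by -0.21 ± 0.10 (adjusted p = 0.143). None of the 3 constitutive proteasome subunits that the immunoproteasome replaces was called, and Psmb5, Psmb6 and Psmb7 had changes of 0.20, 0.07 and 0.24.

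Among 15 tested heavy chains of other class I and related molecules, 1 rose and 4 fell (median -0.11). Over all genes tested, 12.9% were called higher and 14.6% lower. Cd1d1, which presents lipids to natural killer T cells, rose by 0.65 ± 0.11 (adjusted p = 4.5e-04). Before transplantation it was at 25 to 43 CPM, and after it at 41.7 to 57.6 CPM, with 1 pre-transplant library, of mouse 2, inside the later range. H2-T3, the thymus leukemia antigen, fell by 0.96 (SE 0.18, adjusted p = 0.00121), from 13.7 to 27.2 CPM before to 6.37 to 12.3 CPM after transplantation, without overlap. H2-T24 fell by 0.55 (SE 0.14, adjusted p = 0.0108), and H2-Q2 and Fcgrt, the neonatal Fc receptor, were the other two that fell. Of the abundant chains, H2-Q6 was at 476 to 905 CPM before and 567 to 709 CPM after transplantation, a change of -0.08 ± 0.15 (adjusted p = 0.709), and 35% of its 50-base words are shared with other genes. Only 3 genes of the list were called without any 1 of Selp low-derived replicate 1, Selp high-derived replicate 1 and Selp high-derived replicate 3.

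Of 12 class II accessory genes tested, 1 rose and 3 fell (median -0.04), against the same 27.4% of all genes called. H2-Ob, the beta chain of the inhibitor of peptide exchange, rose by 1.00 ± 0.23 (adjusted p = 0.00499), from 6.06 to 16.1 CPM before to 12.8 to 23.5 CPM after transplantation. Ctsl, a lysosomal protease that can cut the invariant chain, fell by 0.80 (SE 0.08, adjusted p = 1.6e-05), from 145 to 215 CPM to 89.4 to 119 CPM. March8, a ubiquitin ligase that can remove class II molecules from the surface, fell by 0.80 (SE 0.10, adjusted p = 5.8e-05), from 86.7 to 131 CPM to 52.5 to 73.5 CPM. Neither gene had libraries of the stages that overlapped. Lgmn, another lysosomal protease, fell by 1.67 (SE 0.42, adjusted p = 0.00947) with overlapping libraries. H2-DMa, a chain of the peptide exchange factor and the most abundant of the list per kilobase, had a change of -0.05 ± 0.11 (adjusted p = 0.77).

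Of 16 transcription factors and interferon gamma signalling genes, 2 rose and 2 fell (median 0.07). The share called over all genes was 12.9% higher and 14.6% lower, 27.4% in all. Nfya, a subunit of NF-Y, rose by 0.44 ± 0.14 (adjusted p = 0.0308). Rfxap fell by 0.32 (SE 0.07, adjusted p = 0.00629), with no overlap of the stages, and Rfxank fell by 0.41 (SE 0.13, adjusted p = 0.0272); both are subunits of RFX, which binds the X1 box with Rfx5 (0.03 ± 0.10, adjusted p = 0.854). Jak1, the most abundant of the list per kilobase, had a change of 0.02 ± 0.08. The list had only 2 called genes without Selp low-derived replicate 2, without Selp high-derived replicate 2, and with each old mouse summed, when 0 of them were higher.

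Among 7 co-stimulatory and co-inhibitory ligands, 2 rose and 1 fell (median -0.25), where 12.9% of all genes were called higher and 14.6% lower. Cd86, a ligand of CD28, rose by 1.31 ± 0.32 (adjusted p = 0.00822) from 0.964 to 4.92 CPM to 3.36 to 12.4 CPM, which overlap. Icosl, the ligand of ICOS, rose by 0.76 ± 0.24 (adjusted p = 0.0284). Cd274, which encodes PD-L1, fell by 0.73 (SE 0.15, adjusted p = 0.00271), from 49 to 83.7 CPM before to 28.9 to 52.5 CPM after transplantation. Of all 65 tested pathway genes, 4 had no overlap between the stages, each of them lower (H2-T3, Ctsl, March8 and Rfxap), where 9.75% of all genes had no overlap and 5.47% were lower without it.

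**Figure D4:**
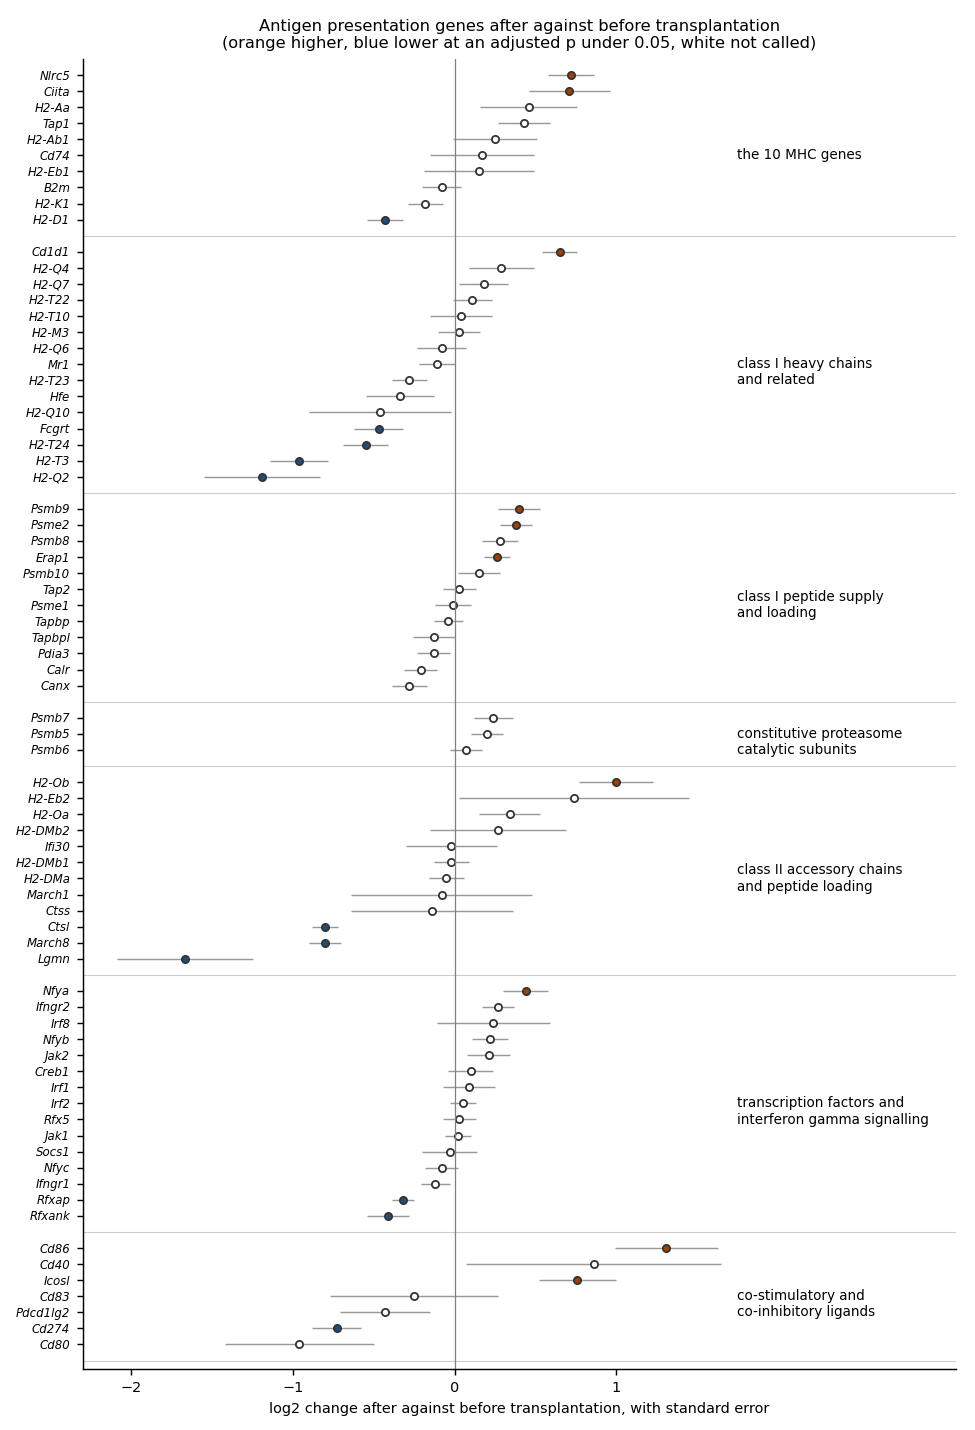
Log2 change after against before transplantation (horizontal axis) with its standard error for the 10 genes and tested genes of the 6 pathway lists, 1 of which is not shown. Orange points rose, blue points fell and white points did not pass an adjusted p under 0.05; Psmb9, Psme2 and Erap1 lie on the higher side, and Ctsl, March8 and Lgmn on the lower.

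The test of the 4 old mice, which called 8.52% of all genes, was also read in the pathway. Of its lists, it called 8 of 15 heavy chains, 6 of 12 peptide supply genes, 5 of 12 class II accessory genes, 3 of 16 upstream genes, 1 of 7 ligands and 0 of 3 constitutive proteasome subunits. Irf1, an interferon-induced activator of class I genes, held 239, 299, 174 and 147 CPM in the Selp low and 247, 306, 188 and 159 CPM in the Selp high libraries of mice 1 to 4 (adjusted p = 0.00503), with mouse 2 highest and mouse 4 lowest. The RFX subunits were not called, with adjusted p of 0.446 for Rfx5, 0.59 for Rfxap and 0.101 for Rfxank.

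Markers of the cells best known for class II were read in each library. Pax5, a defining B cell gene, was at 0 to 0.614 CPM, while Igkc reached 3592 CPM. The summed level of the class II chains was 1816 and 1883 CPM in mouse 2. There 13 B cell markers summed to 525 and 320 CPM. In mouse 4 the class II level was 1104 and 1002 CPM, where those markers summed to 6073 and 2689 CPM. Most of the marker sums in mouse 4 came from the immunoglobulin genes Igkc (3592 and 1700 CPM) and Ighm (2326 and 845 CPM). In mouse 3, with the lowest class II sums (479 and 426 CPM), B cell markers (383 and 350 CPM) were close to those of mouse 2. The 9 dendritic cell markers summed to 126 to 191 CPM before and 108 to 132 CPM after transplantation, mostly from Bst2, an interferon-induced gene also found outside dendritic cells, at a mean of 119 CPM. Of the rest of this list, Zbtb46 was at 3.03 to 18.2 CPM, Clec9a at 1.08 to 5.47 CPM and Siglech at 0 to 8.44 CPM. Cd209a was at 0 to 3.81 CPM, Itgax at 0 to 2.42 CPM and Batf3 at 0 to 0.374 CPM. Xcr1 and Ccr9 were each at 0 to 1.82 CPM. The 9 monocyte and macrophage markers summed to 30.8 to 295 CPM before and 66.6 to 131 CPM after transplantation, highest in Selp low replicate 4. What share of the class II reads came from LT-HSCs was not tested.

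**Figure D5:**
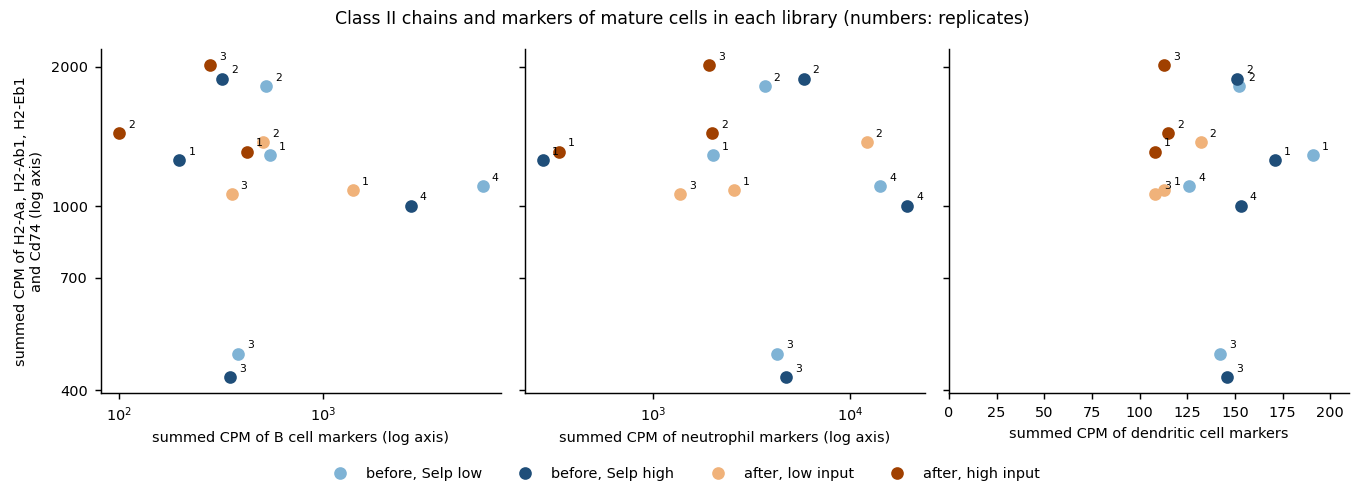
Summed CPM of H2-Aa, H2-Ab1, H2-Eb1 and Cd74 (vertical axis, logarithmic) against the summed CPM of markers of B cells, neutrophils (both logarithmic) and dendritic cells (linear from 0) in each of the 14 libraries, with colors for groups and digits for replicates. Both libraries numbered 4 lie farthest right for B cells and neutrophils at middling class II sums. Both pre-transplant libraries numbered 3 lie lowest, and Selp high-derived replicate 3 lies highest.

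The class II genes moved together from library to library around their group means, and so did H2-K1, H2-D1 and Tap1 of class I, while B2m and Nlrc5 did not follow these. As a description over 14 libraries, 8 of them in pairs from 1 mouse, Pearson's r of log2 CPM deviations was 0.98 between H2-K1 and H2-D1 but 0.01 between H2-K1 and B2m and -0.13 between H2-D1 and B2m. It was 0.95 to 0.99 among H2-Aa, H2-Ab1, H2-Eb1 and Cd74, and 0.85 to 0.92 between each of these and Ciita. Nlrc5 stood at -0.33 to 0.41 with the other 9 genes. Tap1 stood at 0.78 and 0.84 with H2-K1 and H2-D1 and at 0.63 to 0.83 with the class II genes. Of 13517 protein-coding genes, those most like the mean of H2-K1, H2-D1 and B2m were Ifitm3 (r = 0.96), Krt18 (0.95), Gstm4 (0.95), Fggy (0.94) and Slc16a4 (0.93). Those most like the mean of the class II chains were Trim25 (0.95), Spred2 (0.89), Prr12 (0.88), Carmil2 (0.88) and Tns3 (0.88). Of these, Tns3 had an r of 0.01 over the 6 post-transplant libraries alone, against 0.70 to 0.92 for Trim25, Spred2, Prr12 and Carmil2. For the genes most like class I, r over those 6 libraries was 0.52 for Fggy and 0.76 for Slc16a4. It was 0.88 to 0.96 for Ifitm3, Krt18 and Gstm4. Depth, cell mixture and mouse are shared by the points behind these values.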

How the data were processed

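RNA was made into cDNA by template switching and into libraries by tagmentation, per the labels' protocols. The values deposited by the authors are whole-number counts of reads per gene, and the submitters' processing notes name STAR 2.7.0d and the genome build GRCm38. The sources used here do not name the annotation release or the counting settings. All 55450 identifiers matched GENCODE M21, used for symbols, coordinates and exon lengths. The unstranded counts were used. Rows that name no gene (unmapped, multimapping, without a feature, ambiguous) were dropped, and multimapping reads made up 9.93 to 13.44% of reads.

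Counts were tested with edgeR 4.0.16 in R 4.3.3 (TMM factors 0.9631 to 1.042, expression filter with a minimum count of 10, 16878 genes, quasi-likelihood test) in 1 fit of 4 group means over 14 libraries with 10 residual degrees of freedom. Calls are genes with a Benjamini-Hochberg adjusted p under 0.05 over all genes tested. Values after ± are the SE of the fit unless marked as SD. CPM is after TMM scaling, and log2 CPM carries a prior count of 2. The fit was tested on simulated data. Alternatives used DESeq2 1.42.0, limma voom 3.58.1, DESeq2 size factors, no filter, the counts of both strands summed, each library left out, the 3 libraries rich in neutrophil markers left out, only the groups compared, and a replicate block.

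Before transplantation, deviations from the group means correlated across genes with r of 0.29 to 0.53 for libraries with the same number and -0.40 to 0.05 for the rest, so a shared number was read as a shared mouse. After it, r was -0.05 to 0.02 and numbers were not taken as pairs. All pairs of libraries within a group differed by more than sampling noise.

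The 10 genes and all lists were chosen with earlier results of these data known. The text names all 10 genes and, in each pathway list, the 3 with the smallest p after against before transplantation, the 1 with the smallest p in each of the 2 Selp comparisons and the 1 with the highest level per kilobase, except where such a gene is not reported here, and names other called genes after their values were seen. Marker lists are given as sums, and single markers were named after their values were seen.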

Additional observations from a re-analysis of the deposited data

How the results depend on the processing

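The count of the 10 genes called was unchanged at 0 in both Selp comparisons and in their difference under all alternatives run. After against before transplantation, the count was 3 in the main fit, and calls moved only for H2-K1, Tap1 and Ciita. From Selp low input, 1 gene (H2-D1) was called in the main fit, and 0 without a filter on low counts and with only the groups compared. Leaving out 1 library each gave 0 to 1. From Selp high input, 1 gene (Nlrc5) was called, and 2 by DESeq2 (with Tap1), 2 without the 3 libraries rich in neutrophil markers and 2 with the replicate block (each with H2-D1). Leaving out 1 library each gave 1 to 3, the highest without Selp high replicate 2. The cause was not tested.

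With the replicate block, which pairs libraries before transplantation and joins the stages by number only, H2-K1 was called after against before transplantation (-0.28, adjusted p = 0.00935), and the block changed no other call in that comparison or in the Selp comparisons. Over all genes, calls moved by more than 1.5 times in some alternatives. Before transplantation DESeq2 called 11, the replicate block 2 and no filter 1, after it DESeq2 called 25 and the block 4, and for the difference DESeq2 called 11, against 0 each. For Selp low input, 1936 calls became 1260 and 1179 without Selp low replicates 2 and 3, 841 without Selp low-derived replicate 1, 1240 with only the groups compared and 3207 with the block. For Selp high input, 2573 became 1470 without Selp high-derived replicate 3. The fewest reads on any of the 10 genes in a library were 108, on Ciita; how depth or the number of libraries or mice bears on the calls was not tested.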
